A study of Mus musculus with 22 samples.

Results

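The genes described here are 38 genes of mitosis and the mitotic spindle, followed through 22 mouse lymphoma libraries. They were taken as a list of gene symbols, matched to the Ensembl identifiers of the count table, and make up 38 of its 52636 gene identifiers. Messenger RNA was counted by 3′ end sequencing, in which each transcript gives tags near its end. MCL-like tumours, named after mantle cell lymphoma, came from 4 primary mice of genotype R26-Ccnd2tg/tg;p53fl/fl;Mb1Cretg/+ and from 6 transplant libraries grown in NSG hosts, which lack T, B and NK cells. All of these transplants but replicate 5 came from mice that also gave an MCL-like primary. Non-MCL tumours with the same genotype (Ccnd2 non-MCL) came from 3 primary mice and from 2 transplant libraries of a further mouse. Non-MCL tumours of genotype p53fl/fl;Mb1Cretg/+ (p53-only) came from 6 primary mice in 7 libraries. Every group, the p53-only one included, therefore carries floxed p53 alleles and Mb1Cre, a Cre recombinase under the Cd79a promoter of the B lineage, and the R26-Ccnd2tg transgene is what separates the genotypes. The strain was a mixture of 129 and C57Bl6, no treatment is recorded, and the labels give no age. The titles of the 6 MCL-like transplant samples say non-MCL while their immunophenotype field says MCL-like, and they were grouped by that field.

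Mitosis begins when Cdk1 bound to its cyclins becomes active. The Aurora and Polo-like kinases then build the spindle and the chromosomal passenger complex corrects faulty attachments at the centromere. Kinetochore proteins hold chromosomes to microtubules, the spindle checkpoint delays anaphase until every chromosome is attached, and the anaphase-promoting complex with Cdc20 then triggers separation and exit. In dividing B lineage cells these genes are transcribed together late in the cell cycle, so their RNA is widely read as a mark of cycling cells, with Mki67 used in the same way in lymphoma pathology. In bulk tumour RNA, fewer cells of a type and less RNA per cell cannot be told apart.

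Library totals ran from 2693399 to 8146613 counts. All 38 genes passed the low-count filter of every comparison, so no member was lost to it. The 9 B lineage markers read here (Cd79a, Pax5, Ebf1 and others) all had counts in every group, with sums of 1428 to 6962 CPM (counts scaled to a common library total) in the primary libraries. Ccnd2 stood at 1181 to 2127 CPM in the MCL-like primaries, at 1953, 555 and 451 CPM in the Ccnd2 non-MCL primaries, and at 5.49 to 1028 CPM in the p53-only libraries. The libraries labelled Ccnd2 non-MCL transplant held only 45.8 and 83.4 CPM of Ccnd2. Whether the transgene transcript keeps the 3′ end that these tags read is not stated, so Ccnd2 tags do not check the label. Among primary libraries, 5 carry names starting with oTP and the others start with TP. These are Ccnd2 non-MCL replicate 3 and p53-only replicates 4, 5, 6 and 7, and no MCL-like library is among them. p53-only replicates 2 (spleen) and 5 (lymphoma) share a mouse and were summed in every main test.

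Promoter sequence was read for the genes whose differences are described below, because many late cell cycle genes share a pair of promoter elements. The cell cycle genes homology region, which is bound by the MuvB complex and its partners B-Myb (Mybl2) and Foxm1 or, in resting cells, by repressors, is represented here by TTTGAA, and the NF-Y binding element by CCAAT. Both were searched on both strands from 250 bases before to 50 bases after the RefSeq start on GRCm38.p6, where 32 of the 38 genes had an entry. Ccna2, Aurkb, Incenp, Spc24, Tpx2 and Kif20a had none. TTTGAA was found in 24 of 32 promoters (75.0%), against 18.1% of 27025 promoters of all genes, and in 22 of them it began between 30 bases before and 50 bases after the start. CCAAT was found in 24 of 32 (75.0%), against 37.9% of all promoters, and the pair together in 21 of 32 (65.6%), against 7.12%. Among 71 other mitosis genes with an entry, 47.9% held TTTGAA and 33.8% held the pair, while among 18 DNA replication genes 16.7% held TTTGAA and 11.1% held the pair. The lines below run from 120 bases before to 30 bases after the start, 5′ to 3′ on the gene's strand, with capitals marking TTTGAA or CCAAT and their reverse complements TTCAAA and ATTGG. Cdc20 (chr4:118437314-118437463, minus strand), Cenpa (chr5:30666766-30666915, plus strand) and Birc5 (chr11:117849117-117849266, plus strand) are shown because they were called lower in MCL-like primaries. Bub1b, also called lower, is not printed. Its promoter held CCAAT beginning 113 bases before the start and TTTGAA beginning at base 41 after it. Cdk1 (chr10:69352883-69353032, minus strand) is the kinase at the head of the list, and Ube2c (chr2:164769809-164769958, plus strand) had the largest difference after transplantation.
Cdc20: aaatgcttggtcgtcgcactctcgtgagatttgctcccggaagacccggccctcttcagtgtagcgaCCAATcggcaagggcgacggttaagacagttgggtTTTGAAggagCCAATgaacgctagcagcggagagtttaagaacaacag
Cenpa: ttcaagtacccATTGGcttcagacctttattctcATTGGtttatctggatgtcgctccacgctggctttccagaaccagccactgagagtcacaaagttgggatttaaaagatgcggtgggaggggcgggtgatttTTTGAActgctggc
Cdk1: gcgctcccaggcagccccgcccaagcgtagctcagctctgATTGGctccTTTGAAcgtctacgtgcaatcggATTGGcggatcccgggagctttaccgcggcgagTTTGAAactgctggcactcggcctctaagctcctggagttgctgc
Ube2c: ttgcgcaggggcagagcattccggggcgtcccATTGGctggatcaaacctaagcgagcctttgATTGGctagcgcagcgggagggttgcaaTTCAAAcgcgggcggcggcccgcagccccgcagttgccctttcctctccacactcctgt
Birc5: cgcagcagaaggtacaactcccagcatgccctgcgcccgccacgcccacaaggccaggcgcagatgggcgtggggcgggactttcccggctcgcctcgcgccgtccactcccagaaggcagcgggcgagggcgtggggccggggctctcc
Cdc20 and Cdk1 carry TTTGAA just before the start and Cenpa just after it. Neither motif lies in the Birc5 window, and the same holds for Mad2l1, Nuf2, Nusap1 and Pttg1.

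The genes as a set were at their lowest in MCL-like tumours. The summed level of the 38 genes was 4275, 5048, 4815 and 4748 CPM in the MCL-like primaries, 6277, 6699 and 7483 CPM in the Ccnd2 non-MCL primaries, and 4917, 7764 and 8088 CPM (lowest, median and highest of 7 libraries) in p53-only tumours. Only p53-only replicate 5, at 4917 CPM, came down into the range of the MCL-like primaries. Counted against the median of the 14 primary libraries, 7, 9, 8 and 6 of the 38 genes stood above it in the MCL-like primaries, 24, 15 and 19 in the Ccnd2 non-MCL primaries and 16 to 33 in the p53-only libraries. MCL-like transplants had sums of 4357 to 5584 CPM, with 7 to 16 genes above the primary median. Top2a gave the most tags of any member. Without it the sums were 3342 to 3859 CPM in MCL-like primaries, 4546 to 6229 CPM in Ccnd2 non-MCL primaries and 4186 to 6573 CPM in p53-only libraries.

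**Figure D1:**
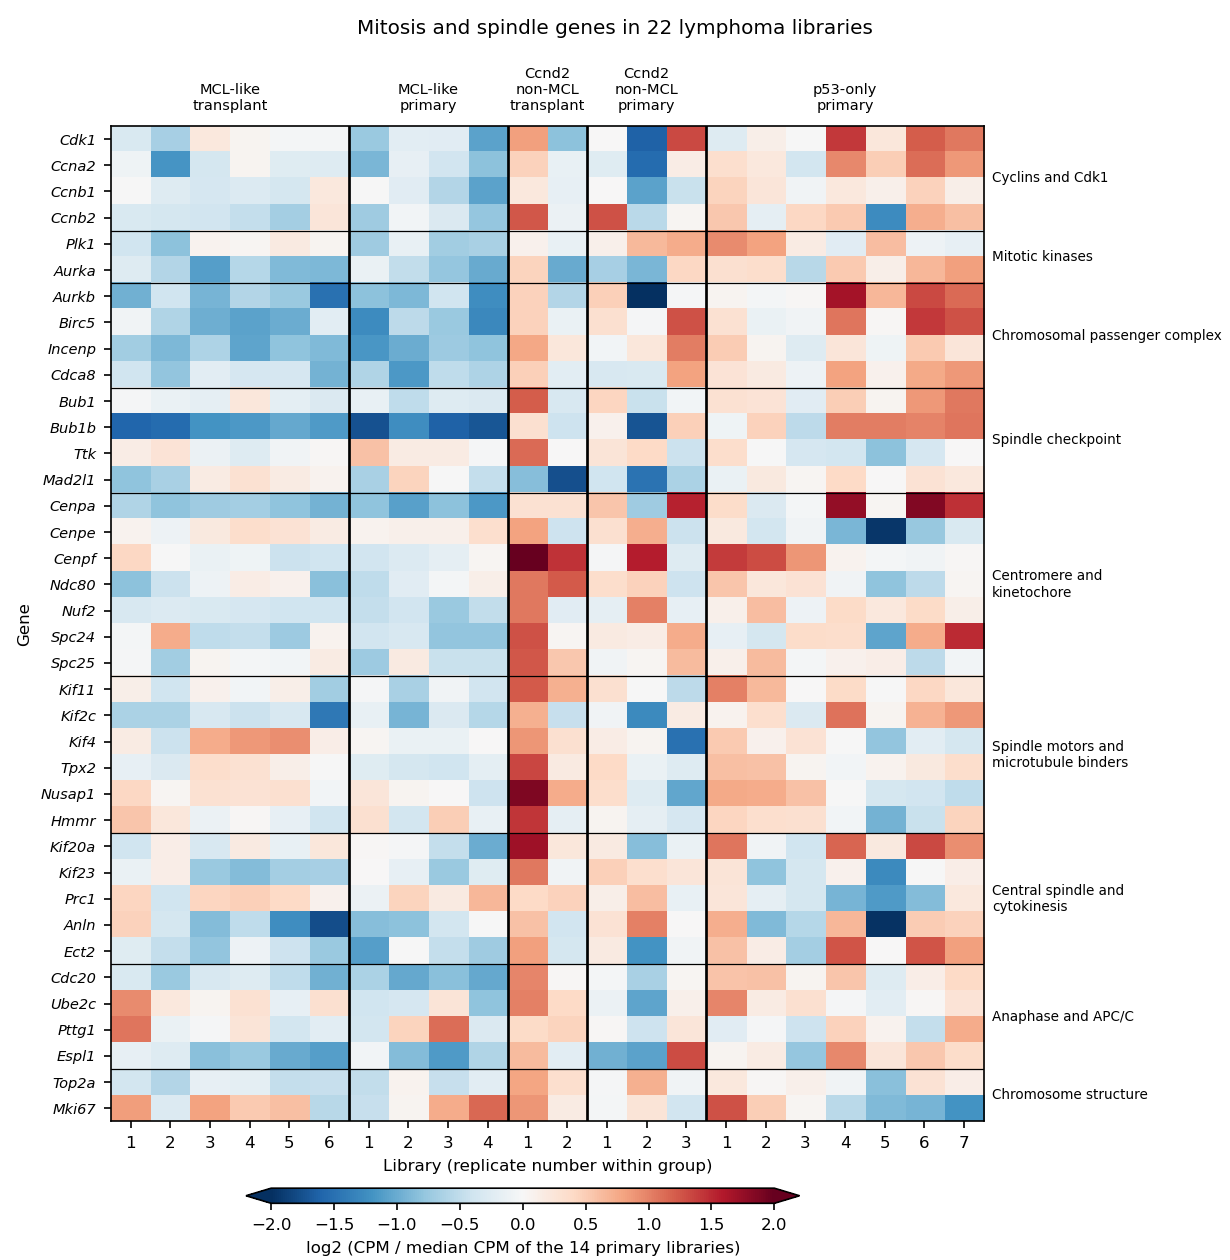
Level of each of the 38 genes (vertical axis, ordered by role) in each of the 22 libraries (horizontal axis, grouped as labelled above), coloured by log2 of its unscaled CPM over the median of the 14 primary libraries. Most genes are blue in the 4 MCL-like primaries, where 6 to 9 of 38 stand above the primary median, while Mki67, Ttk and Prc1 include red cells there, and 37 of 38 stand above it in the Ccnd2 non-MCL transplant library of replicate 1.

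The comparison of MCL-like with all non-MCL primaries (4 mice against 9) asks which of these genes go with the immunophenotype. The R26-Ccnd2tg transgene is carried by all 4 MCL-like mice but is lacking in 6 of those 9, the p53-only ones, so genotype and immunophenotype cannot be told apart here. Tumour site was unevenly spread as well. MCL-like primaries were spleens apart from replicate 1, a mesenteric lymphoma. Ccnd2 non-MCL replicate 1 and p53-only replicates 4, 5, 6 and 7 were not labelled spleen, and p53-only replicate 6 was labelled thymoma. Of the 38 genes 5 fell and none rose by edgeR's quasi-likelihood test at a Benjamini-Hochberg adjusted p under 0.05. These 5 are 13.2% of the members, against a background of 2.68% of 12967 genes called lower and 2.84% called higher. At an unadjusted p under 0.05, 12 members were lower, against 15.1% of all genes, and none was higher, against 10.4%. The fitted log2 fold change was negative for 30 of the 38 genes, against 56.1% of all genes, with a median of -0.63 for the members and -0.13 for all genes tested. Mice of the groups did not overlap, with MCL-like lower, for 5 of the 38 genes, against 2.79% of all genes, and for none with MCL-like higher, against 1.82%.

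The chromosomal passenger complex, in which Incenp is the scaffold, Aurkb the kinase and Birc5 (survivin) and Cdca8 (borealin) the targeting subunits, had 2 of its 4 genes, Incenp and Birc5, called lower in the MCL-like primaries. Incenp (chr19:9872296-9899551, minus strand) stood at 101, 114, 137 and 129 CPM in MCL-like primaries, against 217, 263 and 460 CPM in Ccnd2 non-MCL primaries and 189, 266 and 322 CPM (lowest, median and highest) in p53-only libraries. Every MCL-like mouse lay below every non-MCL mouse. Its scaled level averaged 126 ± 13.3 CPM in MCL-like mice and 275 ± 72.4 CPM in non-MCL mice (SD, n = 4 and 9), a log2 fold change of -1.13 (SE 0.25, edgeR adjusted p = 0.0209). Birc5 (chr11:117849251-117855743, plus strand) stood at 126, 210, 181 and 124 CPM in MCL-like primaries, against 378, 296 and 726 CPM in Ccnd2 non-MCL primaries and 276, 371 and 805 CPM in p53-only libraries. The groups did not overlap, and the highest values belonged to Ccnd2 non-MCL replicate 3 and p53-only replicates 4, 6 and 7, all named oTP. Birc5 fell by 1.52 on the log2 scale (SE 0.36, edgeR adjusted p = 0.0285).

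Cdca8 also had no overlap, with 105 to 165 CPM in MCL-like primaries against 186 to 427 CPM in non-MCL libraries, but its log2 fold change of -0.98 (SE 0.28) missed the threshold (edgeR adjusted p = 0.0553). Aurkb, at 20.8, 19.6, 27.9 and 15.6 CPM in MCL-like primaries, overlapped with Ccnd2 non-MCL replicate 2, which had 8.99 CPM and was the lowest of all primaries. The p53-only libraries held 35.7, 58.2 and 116 CPM of Aurkb, and its fitted log2 fold change was -1.28 (SE 0.49, edgeR adjusted p = 0.124).

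Of the spindle checkpoint genes, Bub1b passed the test and Bub1, Ttk and Mad2l1 did not. Bub1b (BubR1; chr2:118598211-118641591, plus strand), the checkpoint protein that holds back Cdc20, had 42.8, 61.0, 46.5 and 44.1 CPM in MCL-like primaries. It had 152, 43.2 and 200 CPM in Ccnd2 non-MCL primaries and 100, 286 and 301 CPM in p53-only libraries. The groups overlapped through a single mouse, Ccnd2 non-MCL replicate 2, and otherwise lay far apart. The log2 fold change was -1.87 (SE 0.43, edgeR adjusted p = 0.0256). Ttk (Mps1), the kinase that starts checkpoint signalling, ran the other way, with 123, 92.6, 92.4 and 81.1 CPM in MCL-like primaries against 98.8, 108 and 61.5 CPM in Ccnd2 non-MCL primaries and 46.7, 65.6 and 105 CPM in p53-only libraries. Its log2 fold change was 0.40 (SE 0.25, edgeR adjusted p = 0.334), with the groups overlapping.

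Among 7 centromere and kinetochore genes, Cenpa, the histone H3 variant that marks centromeres, was the one that passed. Cenpa (chr5:30666777-30674830, plus strand) had 118, 97.5, 117 and 93.0 CPM in MCL-like primaries, against 303, 126 and 598 CPM in Ccnd2 non-MCL primaries and 168, 265 and 739 CPM in p53-only libraries. The MCL-like mice lay within a narrow band below all others, and the non-MCL mice spread widely, with Ccnd2 non-MCL replicate 3 and p53-only replicates 4, 6 and 7 at 564 CPM or more. Cenpa fell by 1.80 on the log2 scale (SE 0.47, edgeR adjusted p = 0.0383). Nuf2, a subunit of the Ndc80 complex that grips microtubules, had no overlap either, at 13.3 to 17.1 CPM in MCL-like primaries against 19.7 to 44.7 CPM in non-MCL libraries, with a log2 fold change of -0.69 (SE 0.29, edgeR adjusted p = 0.148). Cenpf, a kinetochore and nuclear envelope protein, had 152, 165, 175 and 203 CPM in MCL-like primaries. It had 194, 588 and 165 CPM in Ccnd2 non-MCL primaries and 188, 209 and 522 CPM in p53-only libraries, high values being those of Ccnd2 non-MCL replicate 2 and p53-only replicates 1, 2 and 3. Its log2 fold change was -0.78 (SE 0.39, edgeR adjusted p = 0.218).

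Of the anaphase genes, Cdc20 (chr4:118432901-118437352, minus strand), the activator of the anaphase-promoting complex, passed the test. It had 128, 96.8, 111 and 97.0 CPM in MCL-like primaries, against 193, 126 and 202 CPM in Ccnd2 non-MCL primaries and 166, 260 and 296 CPM in p53-only libraries. Only Ccnd2 non-MCL replicate 2, at 126 CPM, reached into the MCL-like range. Cdc20 averaged 115 ± 27.2 CPM in MCL-like mice and 223 ± 54.1 CPM in non-MCL mice (scaled, SD, n = 4 and 9) and fell by 0.95 on the log2 scale (SE 0.26, edgeR adjusted p = 0.0458). Pttg1 (securin), which restrains separase, had 52.0, 90.9, 145 and 54.8 CPM in MCL-like primaries, against 68.3, 50.4 and 79.7 CPM in Ccnd2 non-MCL primaries and 48.3, 65.9 and 112 CPM in p53-only libraries. The groups overlapped, although MCL-like replicate 3, at 145 CPM, lay above every non-MCL primary library. The log2 fold change was 0.43 (SE 0.30, edgeR adjusted p = 0.387).

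No cyclin, mitotic kinase, spindle motor, central spindle or chromosome structure gene passed the test in this comparison. Cdk1 had 164, 237, 236 and 131 CPM in MCL-like primaries, against 277, 89.9 and 684 CPM in Ccnd2 non-MCL primaries and 231, 323 and 733 CPM in p53-only libraries. Its log2 fold change of -0.996 (SE 0.46) came with an edgeR adjusted p of 0.184, and the non-MCL mice alone spanned the whole range. Plk1, the Polo-like kinase of mitotic entry, had 154, 228, 156 and 160 CPM in MCL-like primaries, against 269, 395 and 422 CPM in Ccnd2 non-MCL primaries and 216, 281 and 483 CPM in p53-only libraries (log2 fold change -0.81, SE 0.30, edgeR adjusted p = 0.108). It was the p53-only group that overlapped with MCL-like replicate 2.

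The remaining cyclins and kinases overlapped between the groups. Ccnb1, a cyclin partner of Cdk1, ranged over 60.7 to 126 CPM in MCL-like primaries, 60.8 to 128 CPM in Ccnd2 non-MCL primaries and 122 to 174 CPM in p53-only libraries, so that it was the p53-only group that stood higher. Ccnb2, the second mitotic B-type cyclin, ranged over 52.9 to 87.6 CPM in MCL-like primaries, 62.3 to 218 CPM in Ccnd2 non-MCL primaries and 37.8 to 149 CPM in p53-only libraries. Log2 fold changes were -0.33 (SE 0.31) for Ccnb1, -0.76 (SE 0.33) for Ccnb2 and -0.78 (SE 0.39) for Ccna2. Aurka, the Aurora kinase of spindle poles, ranged over 30.1 to 55.6 CPM in MCL-like primaries, 32.1 to 80.5 CPM in Ccnd2 non-MCL primaries and 41.5 to 107 CPM in p53-only libraries (log2 fold change -0.63, SE 0.35, edgeR adjusted p = 0.268).

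Spindle motors and microtubule binders had fitted log2 fold changes from -0.63 for Kif2c to 0.17 for Hmmr, with a median of -0.20. Tpx2, which activates Aurka on the spindle, overlapped only with Ccnd2 non-MCL replicate 3, at 78.2 to 90.3 CPM in MCL-like primaries against 86.7 to 136 CPM in Ccnd2 non-MCL primaries and 99.2 to 157 CPM in p53-only libraries (log2 fold change -0.40, SE 0.23, edgeR adjusted p = 0.283). Kif11, the motor that pushes spindle poles apart, ranged over 37.6 to 58.3 CPM in MCL-like primaries, 41 to 73.5 CPM in Ccnd2 non-MCL primaries and 58.6 to 118 CPM in p53-only libraries. Kif4, a chromosome-bound kinesin, kept to 35.8 to 40.4 CPM in MCL-like primaries, inside its range of 14 to 56.3 CPM in non-MCL libraries. Hmmr, a spindle assembly factor, overlapped widely, with 64.3 to 117 CPM in MCL-like primaries and 43.3 to 114 CPM in non-MCL libraries.

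In the central spindle and cytokinesis group, Ect2, the activator of RhoA for the contractile ring, had a log2 fold change of -0.86 (SE 0.43), Anln (anillin), the ring's scaffold, -0.73 (SE 0.36) and Kif20a -0.72 (SE 0.42), with edgeR adjusted p values of 0.221, 0.215 and 0.296. Anln ranged over 14.9 to 26.9 CPM in MCL-like primaries, just under the 27.0 to 54.0 CPM of Ccnd2 non-MCL primaries, and 6.81 to 44.4 CPM in p53-only libraries. In the kinetochore, Spc24 had -0.89 (SE 0.32, edgeR adjusted p = 0.105) and its partner Spc25 -0.32 (SE 0.25), Ndc80 had -0.18 (SE 0.26) and Cenpe 0.36 (SE 0.30). Spc24 ranged over 33.2 to 46.0 CPM in MCL-like primaries, below the 63.5 to 95.7 CPM of Ccnd2 non-MCL primaries but within the 27.6 to 161 CPM of p53-only libraries. Bub1 had -0.55 (SE 0.30), Mad2l1 0.08 (SE 0.32), Ube2c -0.31 (SE 0.33) and Espl1 (separase), which cuts the cohesin ring, -0.73 (SE 0.42), and the lowest of their edgeR adjusted p values was 0.271, for Bub1.

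Mki67, which coats mitotic chromosomes and encodes the Ki-67 antigen, stood apart from the genes above in having the largest positive fitted value. It had 219, 313, 505 and 668 CPM in MCL-like primaries, against 295, 361 and 233 CPM in Ccnd2 non-MCL primaries and 133, 209 and 728 CPM in p53-only libraries. The groups overlapped and the log2 fold change was 0.50 (SE 0.41, edgeR adjusted p = 0.46). Prc1, which bundles central spindle microtubules, was next, with 113, 167, 140 and 196 CPM in MCL-like primaries against 133, 188 and 111 CPM in Ccnd2 non-MCL primaries and 56.2, 96.5 and 145 CPM in p53-only libraries (log2 fold change 0.49, SE 0.28, edgeR adjusted p = 0.283). Top2a, the topoisomerase that untangles sister chromatids, had 933, 1382, 957 and 1134 CPM in MCL-like primaries, 1292, 2153 and 1254 CPM in Ccnd2 non-MCL primaries and 730, 1408 and 1595 CPM in p53-only libraries. Its log2 fold change was -0.30 (SE 0.24, edgeR adjusted p = 0.451). Nusap1, a spindle microtubule binder, averaged 159 ± 44.7 CPM in MCL-like mice and 159 ± 67.3 CPM in non-MCL mice (scaled, SD, n = 4 and 9). Kif23, a kinesin of the central spindle, averaged 155 ± 42.9 CPM in MCL-like mice and 181 ± 45.5 CPM in non-MCL mice (log2 fold change -0.22, SE 0.27, edgeR adjusted p = 0.628).

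**Figure D2:**
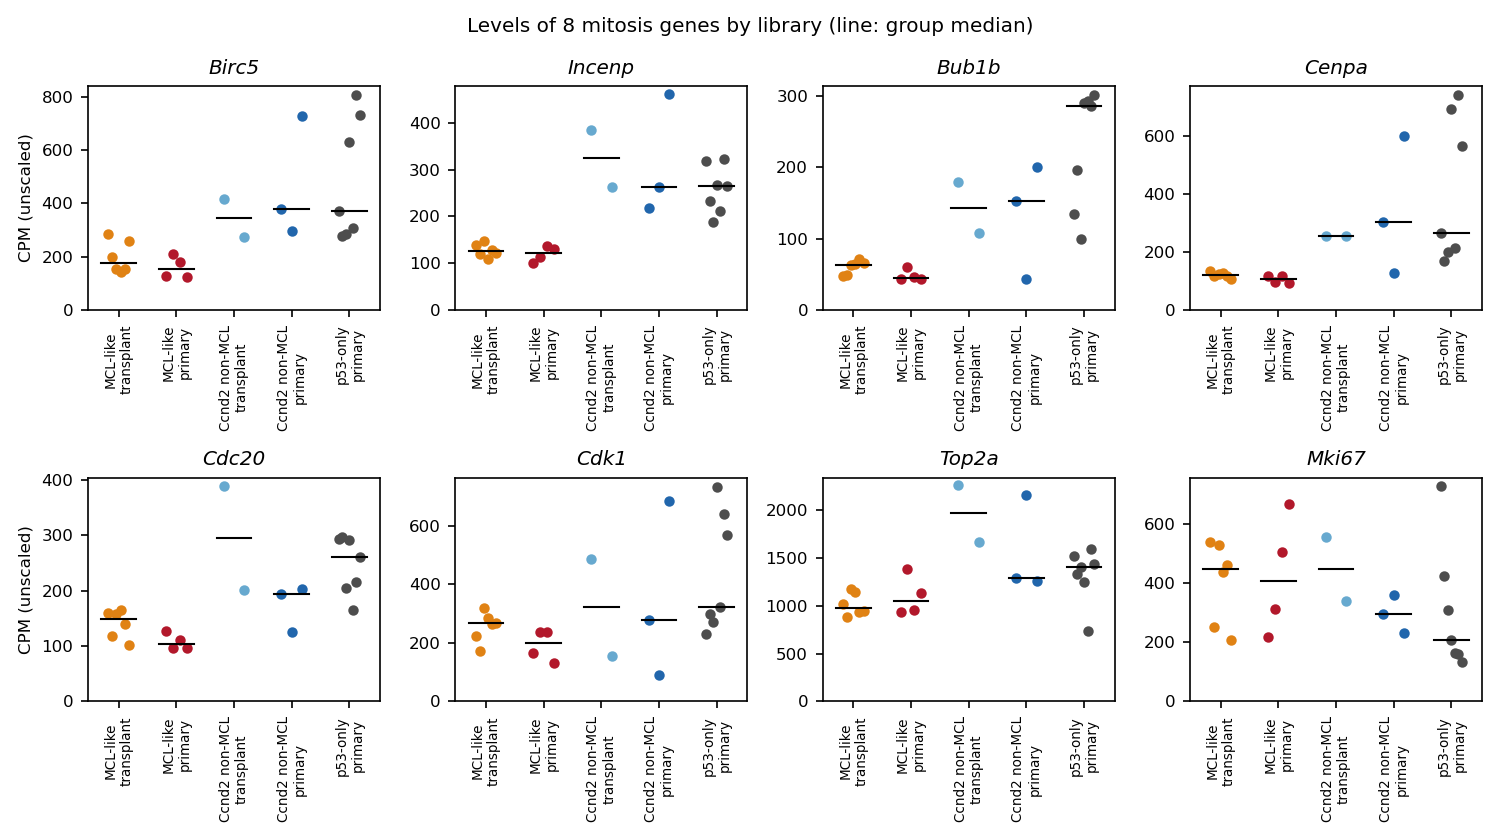
Unscaled CPM (vertical axis) of 8 genes in each library, by group (horizontal axis), with a line at the group median. Birc5, Incenp and Cenpa of the 4 MCL-like primaries lie below every non-MCL primary, Bub1b and Cdc20 are crossed only by Ccnd2 non-MCL replicate 2, and Mki67 reaches 668 CPM in an MCL-like primary and 728 CPM in a p53-only library.

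DESeq2 and limma-voom each called these 5 genes and Cdca8. Those tools also called more genes in all, 1750 and 1507, against 716 by edgeR. The edgeR calls rested on all 4 MCL-like mice: 0 members passed when MCL-like replicate 1, 2, 3 or 4 was left out, with the median of the members between -0.69 and -0.42, and the same was true in spleen tumours alone (median -0.48). Without the oTP-named tumours 0 members passed (median -0.39), and with the name prefix as a covariate only Cenpf did (median -0.39). The covariate fit also used replicate 2 alone for the shared p53-only mouse. Leaving out Ccnd2 non-MCL replicate 3 or p53-only replicate 4 or 6 left Incenp, Bub1b and Birc5, leaving out p53-only replicate 7 left Incenp and Bub1b, and leaving out Ccnd2 non-MCL replicate 2 brought 7 members past the threshold. Incenp, Bub1b, Birc5, Cenpa and Cdc20 each had a negative fold change in all of these settings, from -0.77 for Cdc20 to -2.002 for Bub1b. Cdc20 also missed the threshold with RLE scaling (edgeR adjusted p = 0.0586) and without the low-count filter (0.102).

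Markers of other cells also differed in level between these groups, but no erythroid or T cell marker was called (lowest edgeR adjusted p 0.083 and 0.087). The 10 erythroid markers summed to 23431 to 111210 CPM in MCL-like primaries, against 3142 to 32416 CPM in Ccnd2 non-MCL primaries and 89.0 to 38705 CPM in p53-only libraries. With the haemoglobin genes left out of the counts, 5 members passed and the median was -0.63. The 10 T cell markers summed to 253 to 472 CPM in MCL-like primaries, against 19.5 to 70.6 CPM in Ccnd2 non-MCL primaries and 3.02 to 543 CPM in p53-only libraries, none of them at 0 across a group. The part of T cell RNA in these differences was not tested. Of 9 B lineage markers, 2 were called higher by edgeR (median log2 fold change 1.25, 6 positive and 3 negative), against 2.84% of all genes. All 9 pro-B and pre-B markers were negative (median -5.13) and 5 were called lower, against 2.68% of all genes. Vpreb1, a surrogate light chain gene of pre-B cells, was at 0.892 to 224 CPM in MCL-like primaries, at 5231, 5691 and 2424 CPM in Ccnd2 non-MCL primaries and at 2.02, 5.45 and 5132 CPM (lowest, median and highest) in p53-only libraries. Its high p53-only values were those of replicates 4, 6 and 7, the libraries that were also high for Birc5, Cenpa and Cdk1, and its part in these differences was not tested.

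Mitosis genes outside the 38 and their transcriptional regulators were read from wider lists. Of 82 other mitosis genes, 6 fell and none rose (edgeR adjusted p under 0.05; background 2.68% lower), with a median log2 fold change of -0.51 and 66 of 82 negative. Tacc3, a spindle protein that stabilises kinetochore fibres, had 47.0, 60.1, 60.1 and 52.9 CPM in MCL-like primaries, against 131, 109 and 130 CPM in Ccnd2 non-MCL primaries and 103, 113 and 196 CPM in p53-only libraries. The groups did not overlap, and Tacc3 fell by 1.23 on the log2 scale (SE 0.24, edgeR adjusted p = 0.0131). Pbk, a mitotic kinase, had 12.8, 36.3, 20.9 and 20.4 CPM in MCL-like primaries, against 79.8, 74.3 and 331 CPM in Ccnd2 non-MCL primaries and 62.3, 79.7 and 235 CPM in p53-only libraries, with a log2 fold change of -2.46 (SE 0.50, edgeR adjusted p = 0.0145). The other 4 were Pimreg with a log2 fold change of -2.76 (adjusted p = 0.0291), the kinetochore protein Ska2 with -1.87 (adjusted p = 0.0425), the Plk1 cofactor Bora with -1.48 (adjusted p = 0.0412) and Trip13, which recycles Mad2, with -1.11 (adjusted p = 0.0331), all by edgeR and none with mice of the groups overlapping.

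Of 20 regulators of the MuvB, Foxm1, E2F and NF-Y families, Mybl2 alone passed, against 2.68% of all genes called lower. Mybl2, which encodes the B-Myb partner of MuvB, had 10.7, 7.81, 5.70 and 9.13 CPM in MCL-like primaries, against 26.4, 42.6 and 22 CPM in Ccnd2 non-MCL primaries and 6.33, 28.0 and 47.5 CPM in p53-only libraries. p53-only replicate 3, at 6.33 CPM, was the mouse that overlapped. Mybl2 fell by 1.64 on the log2 scale (SE 0.42, edgeR adjusted p = 0.0382). Foxm1, the forkhead factor of late cell cycle genes, had 31.8, 60.3, 45.9 and 42.7 CPM in MCL-like primaries, against 45.7, 85.1 and 119 CPM in Ccnd2 non-MCL primaries and 58.7, 73.2 and 120 CPM in p53-only libraries (log2 fold change -0.76, SE 0.28, edgeR adjusted p = 0.105). Of 22 DNA replication genes none was called, and 12 were lower at an unadjusted p under 0.05 by edgeR, against 15.1% of all genes. Their median log2 fold change was -0.73, against -0.63 for the 38 mitosis genes. The difference between the lists was not tested.

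Within the same genotype, MCL-like primaries were set against Ccnd2 non-MCL primaries (4 mice against 3), in a fit that shared its spread with the p53-only mice. The 4 MCL-like mice are the same as above, so this comparison is not separate evidence. None of the 38 genes was called by edgeR, against 0.247% of 12967 genes called lower and 0.0617% called higher. By other tools, DESeq2 called Birc5 and Incenp, and limma-voom called Incenp. Those tools also called more genes in all, 847 and 336, against 40 by edgeR. At an unadjusted p under 0.05, 5 members were lower (Incenp, Birc5, Bub1b, Cenpa and Plk1), against 10.6% of all genes, and 1 was higher (Mad2l1), against 6.2%. The groups did not overlap, with MCL-like lower, for 9 of 38 genes, against 10.5% of all genes, and for none with MCL-like higher, against 5.66%. The fold change was negative for 27 of 38, against 52.2% of all genes, with medians of -0.22 for the members and -0.04 for all genes.

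Incenp had the lowest p of the members here as well, with a log2 fold change of -1.25 (SE 0.30, edgeR adjusted p = 0.0813), averaging 126 ± 13.3 CPM in MCL-like mice and 299 ± 108 CPM in Ccnd2 non-MCL mice (scaled, SD, n = 4 and 3). Birc5 averaged 170 ± 49.8 CPM in MCL-like mice and 445 ± 196 CPM in Ccnd2 non-MCL mice, with a log2 fold change of -1.39 (SE 0.43, edgeR adjusted p = 0.126). Cenpa, at 114 ± 24.3 CPM in MCL-like mice and 325 ± 213 CPM in Ccnd2 non-MCL mice, had -1.52 (SE 0.54, edgeR adjusted p = 0.171), and Bub1b had -1.29 (SE 0.46, edgeR adjusted p = 0.169). All 7 centromere and kinetochore genes and all 4 passenger complex genes had negative values. Plk1 averaged 185 ± 43.3 CPM in MCL-like mice and 349 ± 68.6 CPM in Ccnd2 non-MCL mice (log2 fold change -0.91, SE 0.37, edgeR adjusted p = 0.22). In the other direction, Mad2l1 (Mad2), the checkpoint inhibitor of Cdc20, had 36.3, 77.4, 56.0 and 40.8 CPM in MCL-like primaries and 43.1, 20.4 and 36.6 CPM in Ccnd2 non-MCL primaries, which overlapped (log2 fold change 0.79, SE 0.34, edgeR adjusted p = 0.253). Mki67 had 0.60 (SE 0.55) and Pttg1 0.51 (SE 0.40), with edgeR adjusted p values of 0.626 and 0.551.

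Among other mitosis genes in this comparison, none of 82 was called by edgeR and 17 were lower at an unadjusted p under 0.05, against 10.6% of all genes. Pbk came nearest, with a log2 fold change of -2.68 (SE 0.57, edgeR adjusted p = 0.0652). Mybl2 had -1.73 (SE 0.51, edgeR adjusted p = 0.12) without overlap, and Foxm1 -0.75 (SE 0.34, edgeR adjusted p = 0.291). Ccnd2 itself averaged 1842 ± 360 CPM in MCL-like mice and 972 ± 854 CPM in Ccnd2 non-MCL mice (log2 fold change 0.92, SE 1.195, edgeR adjusted p = 0.743). In spleen tumours alone the median of the members was -0.07, with none called.

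**Figure D3:**
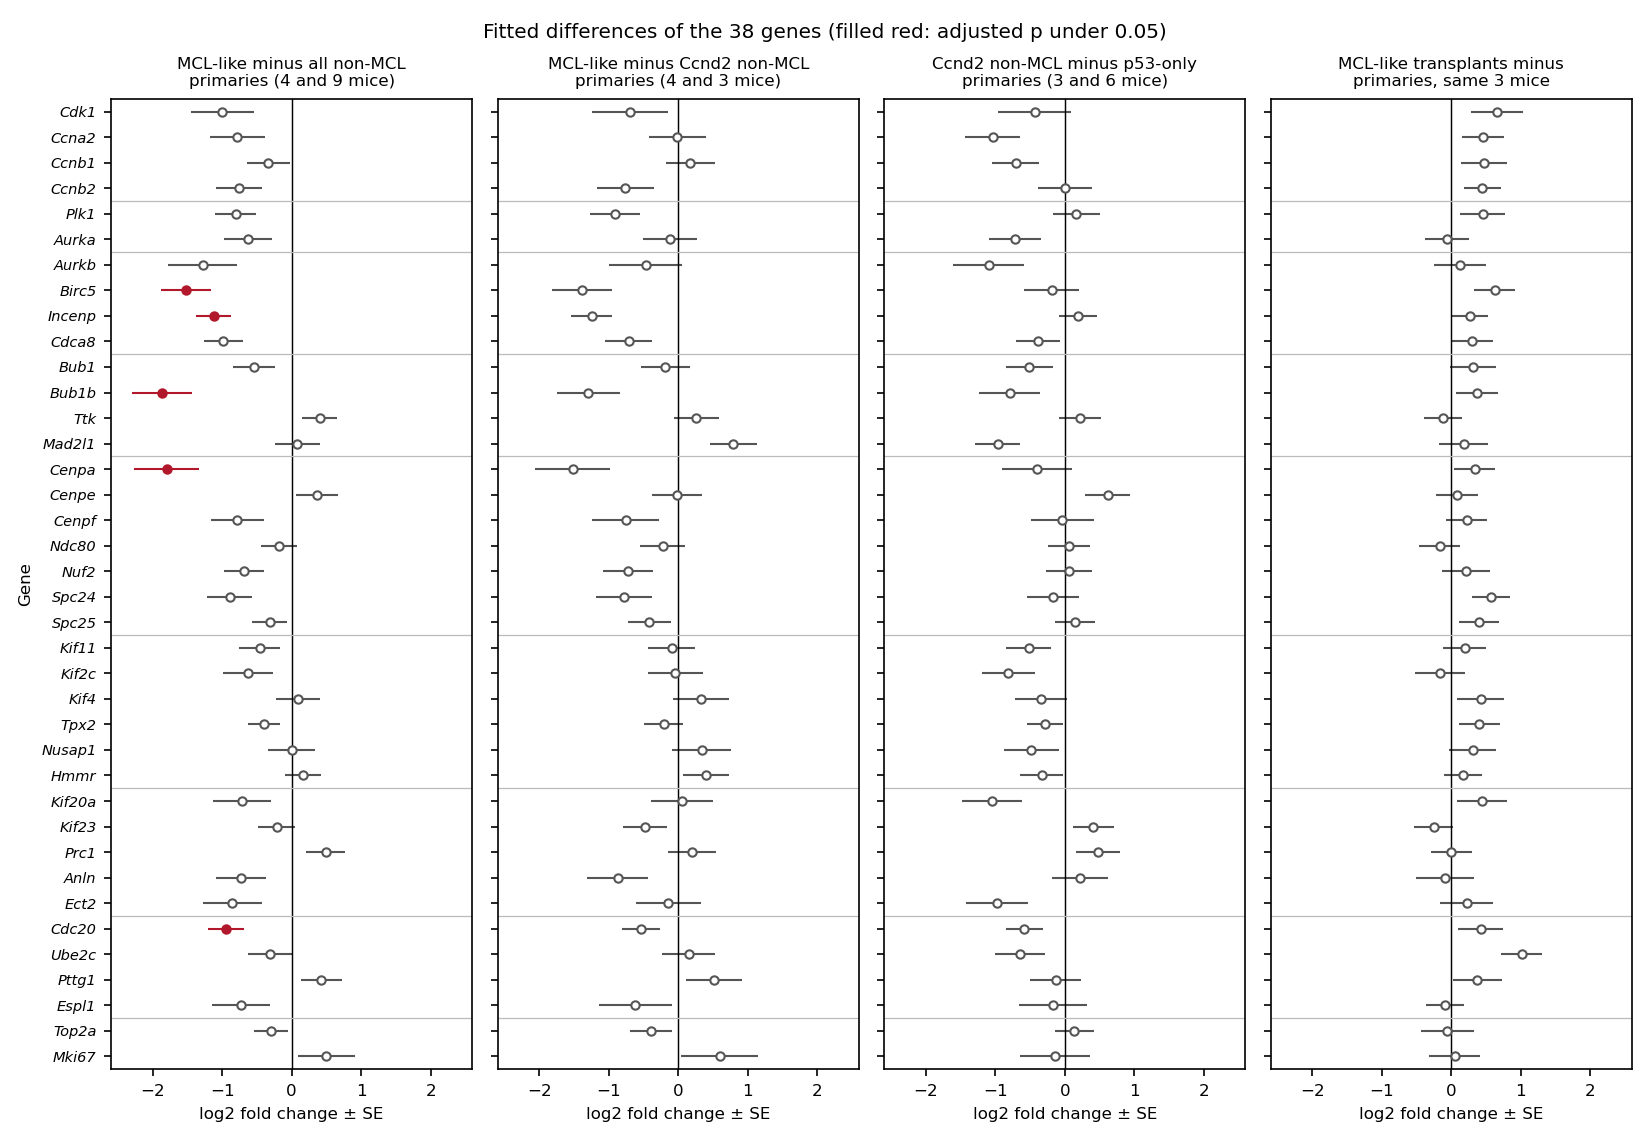
Fitted log2 fold change with its standard error (horizontal axes) for each of the 38 genes (vertical axis, ordered by role) in 4 comparisons, with filled red points at an edgeR adjusted p under 0.05. The only filled points are Birc5, Incenp, Bub1b, Cenpa and Cdc20 in MCL-like against all non-MCL primaries, and the transplant panel is mostly positive, with 29 of 38 genes above 0.

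Ccnd2 non-MCL primaries were compared with p53-only primaries (3 mice against 6), which share the non-MCL label and differ in genotype by the transgene. Vpreb1 was at 2424 to 5691 CPM in the Ccnd2 non-MCL primaries, while only p53-only replicates 4, 6 and 7 had 458 CPM or more. Tumour site and name prefix were also unevenly spread, so the transgene cannot be told apart from these. None of the 38 genes was called by edgeR, nor by DESeq2 or limma-voom, and none of 12967 genes was called at all (0% in either direction). At an unadjusted p under 0.05, 6 members were lower and none higher, against 4.6% and 5.66% of all genes. The lower ones were Mad2l1, Ccna2, Kif20a, Cdc20, Ect2 and Aurkb. The fold change was negative for 26 of 38, against 52.6% of all genes, with a median of -0.31 for the members and -0.04 for all genes. All 6 spindle motors and microtubule binders and all 4 anaphase genes had negative values.

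Mad2l1 had 43.1, 20.4 and 36.6 CPM in Ccnd2 non-MCL primaries, against 51.5, 64.7 and 75.0 CPM (lowest, median and highest) in p53-only libraries, with no overlap. Its log2 fold change was -0.96 (SE 0.32, edgeR adjusted p = 0.379). Cdc20 was the other gene without overlap, at 193, 126 and 202 CPM in Ccnd2 non-MCL primaries against 166, 260 and 296 CPM in p53-only libraries. The p53-only value of 166 CPM is from replicate 5, which was summed with replicate 2 of the same mouse, and these 2 genes compare with 1.58% of all genes without overlap and lower; no member was higher without overlap, against 1.72%. Ccna2 (cyclin A2), which acts in S phase and at mitotic entry, had 96.5, 39.3 and 126 CPM in Ccnd2 non-MCL primaries, against 88.1, 160 and 247 CPM in p53-only libraries (log2 fold change -1.04, SE 0.39, edgeR adjusted p = 0.417). Kif20a, a kinesin of cytokinesis, had 47.9, 23.4 and 38.8 CPM in Ccnd2 non-MCL primaries, against 32.2, 80.6 and 106 CPM in p53-only libraries (-1.04, SE 0.43, edgeR adjusted p = 0.445). Aurkb had a log2 fold change of -1.09 (SE 0.51, edgeR adjusted p = 0.486). All 3 overlapped, and Ccnd2 non-MCL replicate 2 was the lowest primary library for each of Ccna2 and Aurkb.

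The largest positive values in this comparison were those of Cenpe, Prc1 and Kif23, none of which passed. Cenpe, the kinesin that carries chromosomes to the metaphase plate, had 310, 411 and 184 CPM in Ccnd2 non-MCL primaries, against 64.4, 193 and 285 CPM in p53-only libraries (log2 fold change 0.62, SE 0.33, edgeR adjusted p = 0.523). Its lowest p53-only values, 64.4, 132 and 147 CPM, were in the oTP-named replicates 5, 4 and 6. Prc1 had a log2 fold change of 0.47 (SE 0.32) and Kif23 of 0.41 (SE 0.29), with edgeR adjusted p values of 0.608 and 0.636. Mybl2 and Foxm1 had log2 fold changes of 0.14 (SE 0.46) and -0.02 (SE 0.32), and the Foxm1 value changed sign in 11 of 24 alternatives, RLE scaling and library totals among them. Ccnd2 had 1.34 (SE 1.04, edgeR adjusted p = 0.666) and Vpreb1 1.73 (SE 1.88, edgeR adjusted p = 0.771). Of 82 other mitosis genes none was called, with 7 lower and 1 higher at an unadjusted p under 0.05 by edgeR, against 4.6% and 5.66% of all genes.

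Transplantation was examined in the 3 MCL-like mice with both kinds of tumour (primary replicates 1, 2 and 4), transplants against primaries, with the mouse as a block. All transplants were spleens, while primary replicate 1 was a mesenteric lymphoma, so site and transplantation cannot be told apart in that mouse. The median log2 fold change of the members was 0.33 without it, 0.42 without the mouse of replicate 2 and 0.0761 without that of replicate 4. None of the 38 genes was called by edgeR, DESeq2 or limma-voom, and edgeR called none of 12020 genes (0% in either direction). At an unadjusted p under 0.05, 1 member, Ube2c, was higher and none lower, against 2.4% and 3.06% of all genes. The fold change was positive for 29 of 38 genes, against 50.4% of all genes, with medians of 0.28 for the members and 0.01 for all genes. In all 3 mice 12 members were higher in the transplant, against 12.4% of all genes, and 4 were lower, against 16.5%.

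Markers of other cells had mostly lower values in the same paired contrast, none of them past the edgeR threshold. All 10 T cell markers had negative fold changes (median -2.56), 6 with an edgeR unadjusted p under 0.05, against 3.06% of all genes lower. Their sums were 16.2 to 111 CPM in the 6 MCL-like transplant libraries and 253 to 472 CPM in the 4 MCL-like primaries. The 3 NK cell markers tested had a median of -2.71, with sums over the NK list of 1.62 to 8.85 CPM in transplants and 16.1 to 67.1 CPM in primaries. All 10 erythroid markers were negative (median -3.43), with sums of 277 to 119037 CPM in transplants and 23431 to 111210 CPM in primaries. The macrophage markers (8 of 8 negative, median -0.78) and those of stroma and endothelium (7 of 7 tested, median -0.86) went the same way, and no marker of these 5 lists was at 0 across either group. Neutrophil markers were also negative (8 of 8, median -1.09), as were 7 of 9 B lineage markers (median -0.53). Plasma cell markers went the other way, with 5 of 5 tested positive (median 0.81, 3 at an edgeR unadjusted p under 0.05, against 2.4% of all genes higher). The part of other cells' RNA in the members' values was not tested.

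Ube2c, the ubiquitin-conjugating enzyme of the anaphase-promoting complex, had 245, 191 and 175 CPM in transplants, against 116, 121 and 87.9 CPM in the primaries of the same mice (primary replicates 1, 2 and 4). All 3 transplants exceeded all 3 primaries, with a log2 fold change of 1.01 (SE 0.30, edgeR adjusted p = 0.82). Cdk1 had 202, 267 and 303 CPM in transplants, against 164, 237 and 131 CPM in primaries (log2 fold change 0.66, SE 0.37, edgeR adjusted p = 0.82). Birc5 had 248, 260 and 149 CPM in transplants, against 126, 210 and 124 CPM in primaries (0.62, SE 0.29, edgeR adjusted p = 0.82). Both were higher in each of the 3 mice, by unequal amounts. At the other end, Kif23 had 173, 110 and 99.97 CPM in transplants, against 176, 155 and 147 CPM in primaries (-0.26, SE 0.28, edgeR adjusted p = 0.867), and Ndc80, the long arm of the kinetochore's microtubule grip, 34.5, 30.01 and 54.4 CPM in transplants, against 37.5, 45.8 and 58.0 CPM in primaries (-0.17, SE 0.30, edgeR adjusted p = 0.908). Kif2c, a microtubule depolymerase at centromeres, had 20.02, 11.5 and 23.9 CPM in transplants, against 28.0, 16.2 and 21.0 CPM in primaries (-0.16, SE 0.36, edgeR adjusted p = 0.926). The mouse of primary replicate 4 went the other way for Kif2c.

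The 3 mice differed in how many members were higher after transplantation. There were 26 of 38 in the mouse of primary replicate 1, 17 of 38 in that of replicate 2 and 28 of 38 in that of replicate 4. Their summed CPM was 5047, 4624 and 5361 in transplants, against 4275, 5048 and 4748 in primaries. Among MCL-like transplants, only replicate 5 came from a mouse without a primary library here, so the others are not separate tumours from the primaries. Bub1b and Incenp, called lower in MCL-like primaries above, had 47.7 to 70.9 CPM and 109 to 147 CPM in the 6 MCL-like transplant libraries. Those ranges lie below all but 1 Bub1b value (Ccnd2 non-MCL replicate 2, 43.2 CPM) and below every Incenp value of the non-MCL primary libraries. Birc5, Cenpa and Cdc20, also called lower above, had 144 to 286, 106 to 135 and 101 to 165 CPM in the transplant libraries. These ranges overlapped with the non-MCL primary libraries, whose lowest values were 276, 126 and 126 CPM. Foxm1, Mybl2, Ccnd2 and Vpreb1 had log2 fold changes of 0.14 (SE 0.29), -0.57 (SE 0.51), 0.41 (SE 0.40) and 0.46 (SE 4.03) in this comparison, and none was called.

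**Figure D4:**
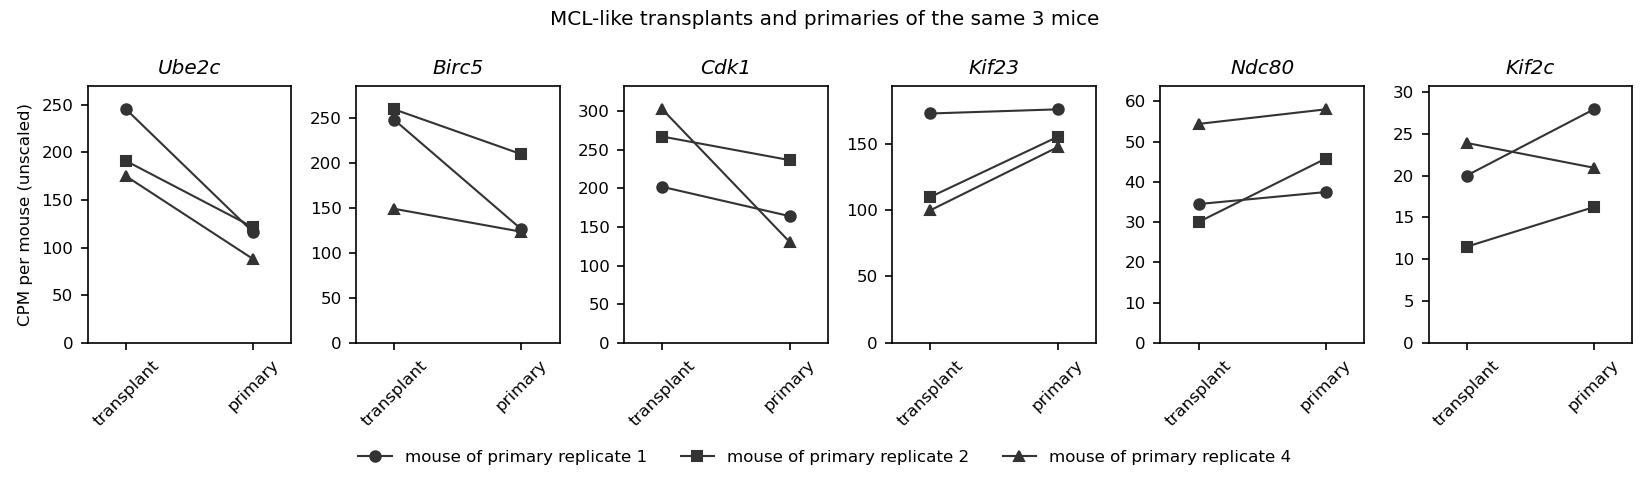
Unscaled CPM per mouse (vertical axes, each from 0) of 6 genes in MCL-like transplants (left) and the primaries of the same mouse (right), with a line and marker for each of 3 mice. Ube2c, Birc5 and Cdk1 are higher in the transplant of every mouse, Kif23 and Ndc80 lower in every mouse, and Kif2c is mixed.

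The 2 libraries labelled Ccnd2 non-MCL transplant came from 1 tumour grown in different NSG hosts, so no test applies to them. Vpreb1 stood at 2.91 and 0.762 CPM in them, against 2424 to 5691 CPM in the Ccnd2 non-MCL primaries, so the tumours were unlike for that gene. Replicate 1 had the highest summed level of the series, 10707 CPM, with 37 of 38 genes above the primary median, and replicate 2 had 6573 CPM, with 18 of 38 above it. Mad2l1 was the exception in replicate 1, at 31.5 CPM, and was lower still in replicate 2, at 16.8 CPM. Cenpf had 845 and 540 CPM, against 165 to 588 CPM in Ccnd2 non-MCL primaries and 188 to 522 CPM in p53-only libraries. Nusap1 had 543 and 250 CPM, against 72.7 to 189 CPM in Ccnd2 non-MCL primaries and 105 to 253 CPM in p53-only libraries. For both genes replicate 1 lay above every primary library and replicate 2 within the range of the non-MCL primaries. Replicate 1 was also well above replicate 2 for Cdc20, with 389 and 202 CPM, for Kif20a, with 137 and 49.3 CPM, and for Cdk1, with 488 and 155 CPM.

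The shared p53-only mouse shows how far these genes differed between 2 libraries of 1 animal. Its lymphoma library (replicate 5) was higher than its spleen library (replicate 2) for 9 members and lower for 29, with a median ratio of 0.762. The ratio ran from 0.334 for Cenpe, at 64.4 CPM in the lymphoma and 193 CPM in the spleen, to 1.63 for Aurkb, at 58.2 and 35.7 CPM. Mki67 was at 164 CPM in the lymphoma and 426 CPM in the spleen, while Birc5 was at 308 and 276 CPM. The 2 libraries differ in site and in name prefix alike, so these cannot be told apart.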

How the data were processed

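The count table deposited by the authors holds unnormalized counts for each Ensembl identifier in each library, from 3′ end (QuantSeq reverse) reads. The submitters' processing notes name FastQC, STAR and the build GRCm38. Tool versions, the read counter and its strand setting are not stated, so genes that overlap can share reads. Symbols matched for 52403 of 52636 identifiers. Here, libraries of a mouse (or of transplants from a primary mouse) were summed, and comparisons used edgeR 4.0.16 (R 4.3.3; quasi-likelihood F test, TMM scaling, default low-count filter on the groups, Benjamini-Hochberg over all genes tested, threshold 0.05). DESeq2 1.42.0 and limma 3.58.1 were alternatives, and the code was tested on simulated data. The standard error is the absolute log2 fold change over the square root of F. Levels are unscaled CPM (counts divided by the library total) by library unless called scaled, which are TMM-scaled per mouse. Transplants were paired by the primary mouse in the labels, and same-mouse deviations correlated at 0.263, 0.274 and 0.363 over 12020 genes. No 2 libraries agreed within counting noise (lowest chi-square per degree of freedom among 231 pairs, 5.36). Depth limits genes at a few CPM, where a library of 2693399 counts holds few tags.

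Genes and lists were chosen with earlier results of these data known. Genes named follow a rule: the member with the highest mean in each role, every called member, the 3 largest and 3 smallest fold changes per comparison, called genes of the wider lists, and Foxm1, Mybl2, Ccnd2 and Vpreb1. Other members were named after their values were seen. Alternatives were other scalings, no filter, other tools, haemoglobin left out, name prefix, site and leaving out each mouse. The name prefix covariate was added after seeing the data, and its fits used replicate 2 alone for the shared p53-only mouse.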

Additional observations from a re-analysis of the deposited data

Results flagged for a closer look

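In 114 groups of mice (each of the 38 genes in MCL-like transplants, MCL-like primaries and p53-only primaries, with 4, 4 and 6 mice), 10 held a mouse whose gap to the nearest other was large for the range of the group by Dixon's test, where chance flags about 1 in 20 groups. Among MCL-like transplants these were Aurka with 46.2 CPM and Kif23 with 173 CPM, highest in the transplants of primary replicate 1 (next 34.4 and 110 CPM), Top2a with 1158 CPM, highest in those of primary replicate 4 (next 954 CPM), and Aurkb with 13.1 CPM and Nusap1 with 143 CPM, lowest in transplant replicate 6 (next 22 and 179 CPM). Among MCL-like primaries they were Plk1, highest in replicate 2 with 228 CPM (next 160 CPM), and Cenpe, highest in replicate 4 with 314 CPM (next 267 CPM). Among p53-only mice they were Ube2c with 303 CPM and Mki67 with 728 CPM, highest in replicate 1 (next 193 and 341 CPM), and Ccnb2 with 66.0 CPM, lowest in the mouse of replicates 2 and 5 (next 120 CPM).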

How the results depend on the processing

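Of the single-gene values under the alternatives, 861 kept their direction and side of the threshold, 110 kept the direction and lost the call, 4 gained it and 19 changed sign.

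MCL-like against all non-MCL (5 members, 716 genes called): members were 0 without oTP tumours (median -0.39, 248 genes), 0 in spleen tumours (37 genes) and 1 with the name prefix as covariate (median -0.39, 213 genes). DESeq2 called 1750 genes and limma-voom 1507. Leaving out 1 mouse gave 0 to 7 members, medians of -0.69 to -0.42 and 176 to 1091 genes. Calls split 368 higher and 348 lower, but 309 and 439 with library totals.

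MCL-like against Ccnd2 non-MCL (0 members, 40 genes): DESeq2 called 2 members and 847 genes, limma-voom 1 and 336. Genes were 22 with RLE scaling, 552 without oTP tumours, 116 in spleen tumours, 16 with replicate 2 alone for the shared mouse, 19 with the prefix and 371 with only the 2 groups. Leaving out 1 mouse gave 0 to 54 genes.

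Ccnd2 non-MCL against p53-only (0 genes): 2 without the filter, 119 by DESeq2, 33 by limma-voom, 116 without oTP tumours, 41 in spleen tumours, 1 with the prefix and 0 to 8 leaving out 1 mouse. Foxm1 (-0.02) became 0.0371 with RLE scaling, 0.0161 with library totals, 0.00289 without the filter, 0.03995 by DESeq2, 0.50 in spleen tumours, 0.0496 with the prefix and 0.0221 with only the 2 groups. Leaving out 1 mouse gave Foxm1 -0.32 to 0.25 and Mybl2 (0.14) -0.16 to 0.37.

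Transplants against primaries (0 genes): 35 without the filter, 31 by DESeq2, 6 by limma-voom, 0 to 14 leaving out 1 mouse. Without the replicate block 0 members and 0 genes were called (median 0.25), and Vpreb1 (0.46) turned to -1.64. Leaving out 1 mouse gave -3.05 to 3.27 for Vpreb1, -0.38 to 0.0373 for Ndc80, -0.51 to 0.0243 for Kif2c and -0.014 to 0.32 for Foxm1.

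Summed levels with TMM scaling were 5502 CPM in MCL-like transplants and 8702 CPM in Ccnd2 non-MCL transplants. Fits that leave out mice hold fewer samples; other causes were not tested.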
